A study of Mus musculus with 4 samples.

Results

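Dividing immune cells were followed through 40 cell cycle genes, chosen by symbol out of the 31053 genes in the deposited matrix. Of these, 16 act in G1/S and S phase, 23 act in G2 and M phase, and Stmn1, a microtubule-destabilising protein abundant in dividing cells, was placed in neither set. The genes were measured as unique molecular identifiers (UMIs, one per captured transcript) in droplet single-cell RNA libraries of hepatic immune cells from male mice, 8 weeks of age, that carried MC38 tumours, a mouse colon cancer line. The study addressed liver metastasis promoted by surgical stress, and all groups carried the tumour. The mice were sedentary (Sed) or exercised before surgery (Ex, also called PEx), and livers were taken 3 weeks after tumour injection. The strain and the exercise schedule are not given in the sources used here. Each group had 2 libraries, and nothing in the labels says that they came from separate animals, so p-values measure the spread between these libraries, which may be technical.

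A cell that divides first licenses its replication origins with Cdc6, Cdt1 and the Mcm2 to Mcm7 helicase, then copies its DNA with the clamp Pcna and with nucleotides supplied by ribonucleotide reductase (Rrm1, Rrm2), Tyms and Tk1. In G2 and M phase the kinase Cdk1 with cyclins A and B, the Aurora and Polo kinases, spindle motors and the spindle checkpoint separate the chromosomes, and Cdc20 and Ube2c help the anaphase-promoting complex to end mitosis. E2F factors are known to drive S phase genes, and the DREAM and MMB complexes act through CHR and CCAAT elements at G2/M genes. In the liver, resident Kupffer cells can renew themselves locally, lymphocytes divide after activation, and neutrophils stop dividing during maturation, before they leave the bone marrow.

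The 4 libraries held 28525 barcoded cells and 135480097 UMIs, between 23918964 and 41027638 UMIs per library. A further 22615 matrix columns carry no barcode and were not used. Cells were assigned to a library by the number at the end of the barcode, which follows the order of libraries in the authors' aggregation and is not written out in the labels. After filters 23840 cells remained, with median UMIs of 3286, 3286, 3749 and 3701 per cell in Sed 1, Sed 2, Ex 1 and Ex 2, and 21317 of them were in named immune classes. Across libraries, 83 barcode sequences occurred more than once out of 28442. The labels put the purity of the CD45 bead selection above 90%, while 1047 cells at the depth used below were endothelial-like and 166 were hepatocyte-like, so those were left out of the immune classes. Class names rest on rebuilt clusters and marker genes, and carry the ending -like for that reason. Ltf had a UMI in 89.6% of immature neutrophil-like cells and in 1.2% of other cells, and Clec4f in 73.5% of Kupffer-like cells and in 4.8% of others. The clusters were made without cell cycle genes. An unnamed lymphocyte cluster led by Dut and Ube2c formed all the same, with 12 of its 23 cells at depth cycling, and was left out of the classes.

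A cell was called cycling when at least 3 of the 40 genes had a UMI after it was thinned at random to 1000 UMIs, and the 1300 immune cells below that depth were left out. Of these 766 were Kupffer-like, out of 1905, so the Kupffer-like shares cover the cells with more UMIs. Of 20017 immune cells, 1089 were cycling, or 5.44% (95% exact binomial interval 5.13 to 5.76, which covers counting error only). The call is a range on a continuous count, not a cell type. None of the 40 genes was seen in 72.0% of cells, 1 gene in 18.4%, 2 genes in 4.14% (829 cells) and exactly 3 genes in 1.38% (277 cells), while 7 or more were seen in 1.93%. The cells on either side of the limit are therefore those 829 and 277. Before thinning, cycling cells held a median of 10014 UMIs and other cells 3611.

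The 40 genes differed in how closely they kept to cycling cells (the plot of UMI shares per gene). For each gene, cells were called by the other 39, and the share of its thinned UMIs in those cells was taken. The share was 89.3% for Nusap1, which bundles spindle microtubules, 88.0% for the checkpoint kinase Bub1, and 85.6% for cyclin A2 (Ccna2). It was 10.8% for the licensing factor Cdt1, 19.0% for Pcna and 19.8% for Mcm4. The highest shares belonged mainly to G2/M genes and the lowest mainly to S genes. Rrm2 and Pclaf, a Pcna-binding protein, were among the exceptions at 82.5% and 80.2%. Kif23, a motor of the spindle midzone, had 25.7% of its UMIs in cycling cells and a UMI in 5.54% of mature neutrophil-like cells. Cenpa, the centromeric histone, had 24.9% and a UMI in 8.99% of B-like cells. Over all genes, 12.02% of UMIs before thinning lay in cycling cells. That value is not on the scale of the shares above, since cycling cells held more UMIs before thinning. After thinning every cell held 1000 UMIs, so the matching share over all genes equals the share of cells called cycling. Of the 40 genes, 18 overlap another annotated gene, 9 of them on the same strand, which bears on what the counter assigned to them (Cdt1 among them, with Gm20388).

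**Figure D1:**
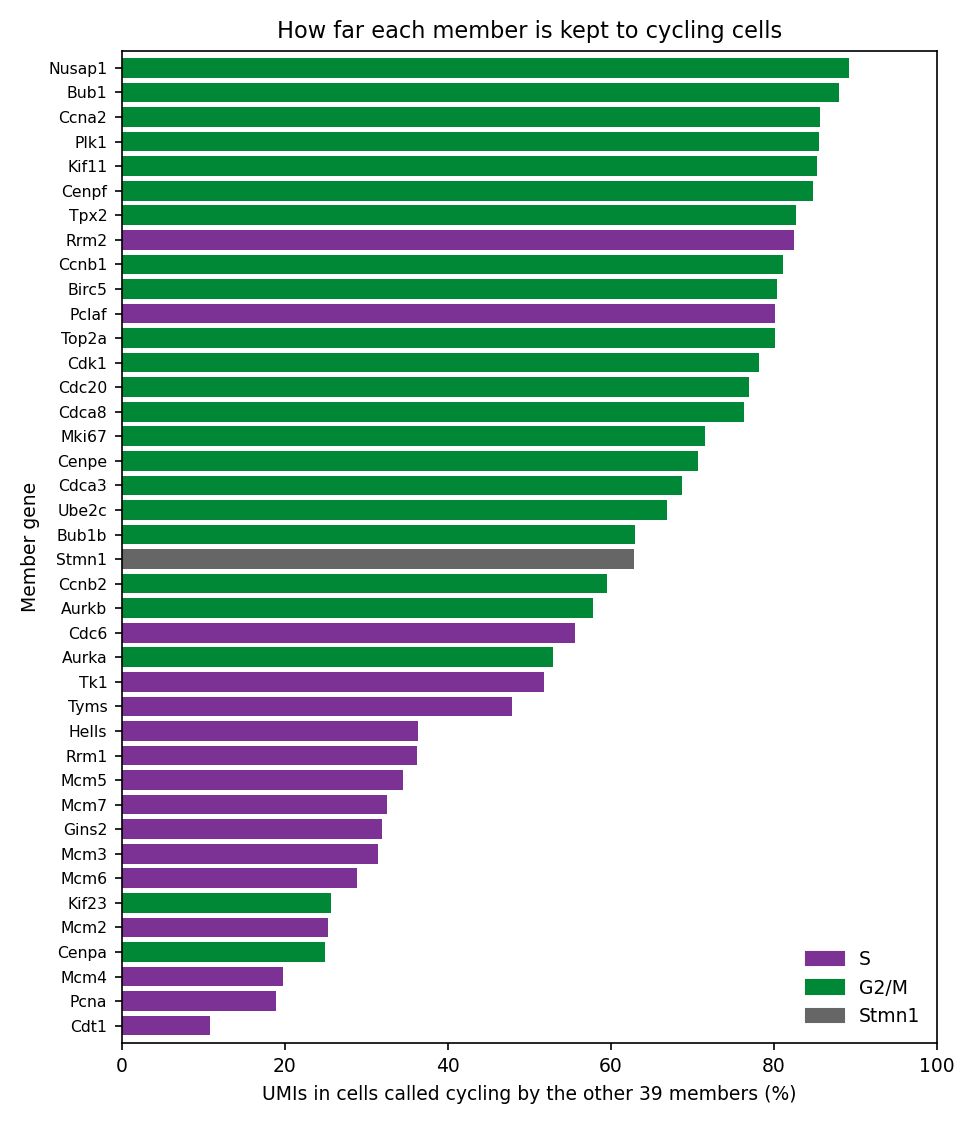
Horizontal bars give, for each of the 40 genes, the percentage of its UMIs (cells thinned to 1000 UMIs) found in cells that the other 39 genes call cycling. Colours give S, G2/M and Stmn1, and the bars run from 89.3% for Nusap1 to 10.8% for Cdt1.

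The promoters of the S and G2/M genes differed in the short elements known for each set. RefSeq windows of 300 bases (GRCm38.p6, 250 before to 50 after the start) matched 34 of the 40 genes. Both strands were searched for the CHR words TTTGAA or TTCGAA, for CCAAT, and for the E2F words TTTCCCGC, TTTGGCGC, TTTCGCGC and TTTGCCGC. Words can share letters where they meet, as the E2F words of Mcm5 do. A CHR word was found in 16 of 20 G2/M windows and 2 of 14 S windows (Mcm2 and Mcm7), against 19.4% of all 27025 windows. CCAAT was found in 18 of 20 G2/M and 9 of 14 S windows, against 37.9%. An E2F word was found in 8 of 14 S windows and in 1 of 20 G2/M windows (Cdk1), against 2.32%. A match is a description of the letters and not a bound site. The 250 bases before the start are printed for 7 genes with the matches in capitals: the S genes Mcm5 (chr8:75109259-75109508, plus strand) and Mcm6 (chr1:128359706-128359955, minus strand), then Cdk1 (chr10:69352913-69353162), Top2a (chr11:99024190-99024439) and Mki67 (chr7:135716380-135716629), which changed in immature neutrophil-like cells as described further on, and last Ccnb2 (chr9:70421555-70421804) and Cdc20 (chr4:118437344-118437593), which did not pass there, the last 5 all on the minus strand.
Mcm5: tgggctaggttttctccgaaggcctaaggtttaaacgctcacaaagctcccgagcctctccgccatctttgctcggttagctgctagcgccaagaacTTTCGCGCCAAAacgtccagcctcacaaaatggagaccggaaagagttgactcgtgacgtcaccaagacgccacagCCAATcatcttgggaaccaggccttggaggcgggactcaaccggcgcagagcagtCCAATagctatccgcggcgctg
Mcm6: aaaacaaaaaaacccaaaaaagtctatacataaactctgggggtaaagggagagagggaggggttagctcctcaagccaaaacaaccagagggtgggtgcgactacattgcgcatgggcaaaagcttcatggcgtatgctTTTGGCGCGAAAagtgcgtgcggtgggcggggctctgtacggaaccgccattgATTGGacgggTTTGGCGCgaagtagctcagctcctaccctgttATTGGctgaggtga
Cdk1: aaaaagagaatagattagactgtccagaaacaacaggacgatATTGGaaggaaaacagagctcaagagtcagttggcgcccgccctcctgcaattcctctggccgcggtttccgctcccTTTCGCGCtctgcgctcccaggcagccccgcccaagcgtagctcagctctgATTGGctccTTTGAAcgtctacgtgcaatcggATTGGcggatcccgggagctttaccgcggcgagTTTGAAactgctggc
Top2a: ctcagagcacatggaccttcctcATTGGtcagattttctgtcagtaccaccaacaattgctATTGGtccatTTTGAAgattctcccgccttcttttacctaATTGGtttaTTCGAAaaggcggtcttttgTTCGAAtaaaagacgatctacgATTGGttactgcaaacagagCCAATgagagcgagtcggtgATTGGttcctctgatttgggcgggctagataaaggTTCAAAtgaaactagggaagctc
Mki67: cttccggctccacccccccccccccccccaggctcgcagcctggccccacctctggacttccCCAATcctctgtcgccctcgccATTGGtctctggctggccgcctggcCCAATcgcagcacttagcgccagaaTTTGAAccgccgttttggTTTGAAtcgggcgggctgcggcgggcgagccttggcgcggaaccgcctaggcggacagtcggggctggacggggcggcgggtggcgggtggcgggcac
Ccnb2: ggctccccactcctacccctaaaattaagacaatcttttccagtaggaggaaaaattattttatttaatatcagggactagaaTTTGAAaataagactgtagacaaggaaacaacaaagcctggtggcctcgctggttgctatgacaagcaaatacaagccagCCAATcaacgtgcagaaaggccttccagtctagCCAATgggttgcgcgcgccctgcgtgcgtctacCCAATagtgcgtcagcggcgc
Cdc20: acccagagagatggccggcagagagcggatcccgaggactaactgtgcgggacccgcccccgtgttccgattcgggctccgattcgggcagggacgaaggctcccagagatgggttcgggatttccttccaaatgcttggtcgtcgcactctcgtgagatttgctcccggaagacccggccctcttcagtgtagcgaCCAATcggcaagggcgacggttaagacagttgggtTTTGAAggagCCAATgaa
Mcm5 and Mcm6 held E2F words and CCAAT with no CHR word, and Cdk1 held all 3 kinds. Top2a, Mki67, Ccnb2 and Cdc20 each held CHR and CCAAT, a pair found in 16 G2/M windows, 2 S windows and 7.70% of all windows. Among the printed G2/M genes, this pair therefore does not separate those that passed the test from those that did not. The comparison was not made over all matched G2/M genes.

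Cycling cells were found in most immune classes, at widely differing shares (the plot of cycling shares by class and library). Over all libraries the share was 16.01% in immature neutrophil-like cells, 11.7% in conventional dendritic cell-like (cDC) cells, 9.40% in monocyte-like, 9.13% in T-like, 8.60% in Kupffer-like, 8.22% in NK or ILC1-like, 4.55% in plasmacytoid dendritic cell-like, 2.97% in macrophage-like and 0.799% in B-like cells. Mature neutrophil-like cells, which do not divide, gave the background: 5 of 3577 cells, or 0.140%, at median depths of 2385, 2090, 2320 and 2276 UMIs in Sed 1, Sed 2, Ex 1 and Ex 2. In Ex 1 the count there was 0, which allows a share of up to 0.633%. The B-like share stood above that background, at 0.53%, 1.98%, 0.51% and 0.68% in the same library order, although its lowest libraries overlapped the upper limit in Ex 1. The cDC-like cells were 1 cluster named from cDC1 markers, with a Xcr1 UMI in 32.3% and a Clec9a UMI in 34.7% of its cells, and its leading genes also held Cd209a. From immature neutrophil down to NK or ILC1 the library ranges overlapped, so the order of those neighbours is not fixed, and in both Sed libraries the immature neutrophil-like share lay below the cDC-like one. Among smaller classes, 8 of 62 plasma-like cells were cycling, and 0 of 84 mature dendritic cell-like cells.

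Of the 1089 cycling cells, 338 (31.0%) were monocyte-like, 266 (24.4%) T-like, 110 (10.1%) immature neutrophil-like, 98 Kupffer-like, 85 (7.81%) NK or ILC1-like and 81 (7.44%) cDC-like. By library (Sed 1, Sed 2, Ex 1, Ex 2) the monocyte-like part was 27.0%, 45.3%, 16.1% and 17.0% and the T-like part 25.9%, 17.9%, 34.1% and 24.5%, so the T-like part was the larger one in both Ex libraries. Immature neutrophil-like cells made up 3.43% of immune cells at this depth, pooled over libraries, and so held a larger part of the cycling cells than of all cells. B-like cells made up 20.6% of immune cells and 3.03% of cycling ones.

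**Figure D2:**
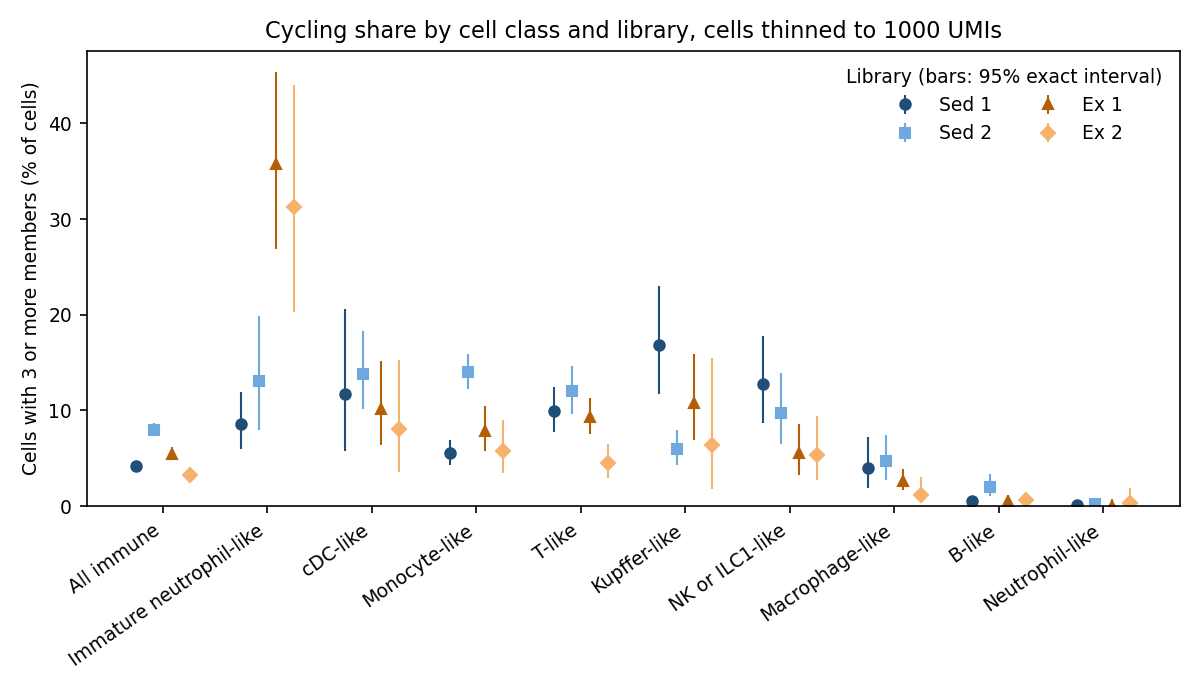
Points give the percentage of cells called cycling (3 or more of the 40 genes after thinning to 1000 UMIs) in each class and library, with 95% exact binomial bars for counting error. Immature neutrophil-like cells stand at 8.58% and 13.04% in the Sed libraries and at 35.71% and 31.25% in the Ex libraries, and no other class plotted exceeds 16.85% in any library.

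Between Sed and Ex, the cycling share over all immune cells overlapped, at 4.17% and 8.00% in the Sed libraries and 5.49% and 3.28% in the Ex libraries. With each class given the same weight in every library, it was 5.37%, 7.05%, 5.71% and 4.09%. Single classes differed in opposite directions. No test was run on these shares, which are a score over the chosen genes.

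In immature neutrophil-like cells, the cycling share was 8.58% in Sed 1 (32 of 373 cells) and 13.04% in Sed 2 (18 of 138), and 35.71% in Ex 1 (40 of 112) and 31.25% in Ex 2 (20 of 64). The group means were 10.8% ± 3.16 (SD, n = 2) and 33.5% ± 3.16 (SD, n = 2), without overlap. Put over all immune cells of a library, cycling immature neutrophil-like cells made up 0.515%, 0.315%, 0.822% and 0.619% in Sed 1, Sed 2, Ex 1 and Ex 2, and the non-cycling ones 5.49%, 2.10%, 1.48% and 1.36%. Both parts of the ratio differed between the groups: there were more cycling and fewer non-cycling cells per immune cell in Ex.

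The class held a cluster of 18, 9, 23 and 17 cells (Sed 1, Sed 2, Ex 1, Ex 2) led by Mpo, Ctsg and Elane, primary granule genes of early granulocyte precursors, and a larger cluster led by Ltf, Camp and Ngp, secondary granule genes. In the Mpo cluster 16 of 17, 9 of 9, 20 of 23 and 12 of 17 cells at depth were cycling. It gave 18.0%, 26.7%, 40.7% and 54.9% of the class's UMIs and 68.7%, 64.2%, 62.5% and 75.3% of the UMIs of the 40 genes. Without it, in the Ltf cluster alone, the cycling share was 4.49% (16 of 356), 6.98% (9 of 129), 22.5% (20 of 89) and 17.0% (8 of 47), again without overlap between the groups.

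**Figure D3:**
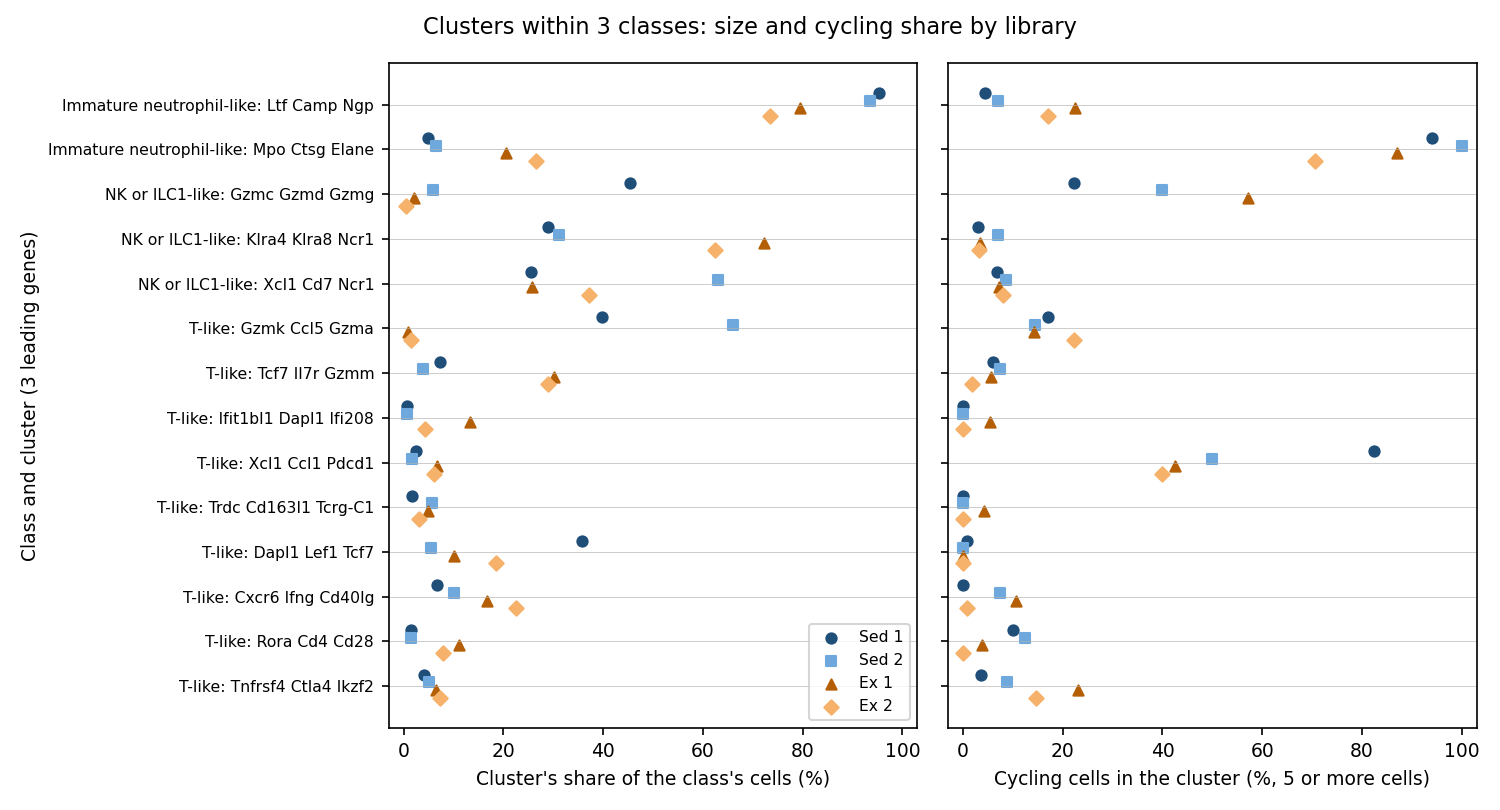
Each row is a cluster of the immature neutrophil-like, NK or ILC1-like or T-like class, named by its 3 leading genes; the left panel gives its percentage of the class's cells and the right panel its percentage of cycling cells (clusters with 5 or more cells at depth), by library. The Mpo cluster is a larger part of its class in both Ex libraries, and the Gzmk cluster of T-like cells is nearly confined to the Sed libraries (271 and 468 cells against 8 and 9).

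UMIs summed per library and class were then compared with edgeR's quasi-likelihood test across all genes, with Benjamini-Hochberg adjustment over all genes tested and a threshold of 0.05. Counts at an unadjusted p under 0.05, given further on, are a description only. The share of all genes at that unadjusted limit is not given, so such counts cannot be set against it. Values per library are UMIs per 1000000 UMIs of the class in that library (CPM) on plain totals, and log2 changes (Ex over Sed) use TMM scaling factors. In immature neutrophil-like cells 22 of the 40 genes rose in Ex and 0 fell, where 20.1% of the 7172 genes tested were called, 8.37% of them upward. The 22 were 10 of 16 S genes, 11 of 23 G2/M genes and Stmn1. All 40 genes were tested, and their median log2 change was 0.79, against 0.01 over all genes. TMM factors differed between the groups here (0.837, 0.966, 1.04 and 1.18), and on plain totals the medians were 1.10 and 0.33. On plain totals 31 of 40 genes were called, in a fit where the median of all genes lay above 0 too. The share of all genes called in that fit is not given, so the 31 cannot be set against it.

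Among S genes, Pclaf stood at 111 and 149 CPM in the Sed libraries and 380 and 284 CPM in the Ex libraries (log2 change 1.10 ± 0.21 SE, adjusted p = 0.000687). The groups did not overlap. Mcm5, a subunit of the replicative helicase, stood at 38.97, 37.1, 93.3 and 97.4 CPM in Sed 1, Sed 2, Ex 1 and Ex 2 (1.00 ± 0.23, adjusted p = 0.00328). Rrm1, the large subunit of ribonucleotide reductase, stood at 37.9, 37.1, 93.9 and 95.1 CPM (1.01 ± 0.23, adjusted p = 0.00301). In both Mcm5 and Rrm1 the Sed libraries lay close together, below both Ex libraries. The small subunit Rrm2 stood at 52.2, 65.3, 141 and 99.7 CPM (0.79 ± 0.23, adjusted p = 0.0164) and Pcna at 38.6, 37.1, 85.8 and 73.4 CPM (0.76 ± 0.24, adjusted p = 0.0264). The helicase subunits Mcm2, Mcm3, Mcm4, Mcm6 and Mcm7 also passed, with log2 changes from 0.70 to 0.84. Tyms, which makes thymidylate, stood at 33.1, 46.2, 87.8 and 53.9 CPM and did not pass (0.63 ± 0.27, adjusted p = 0.10), and neither did Tk1, Hells, Gins2, Cdc6 and Cdt1.

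Among G2/M genes, Top2a, the topoisomerase that untangles chromosomes, stood at 88.0 and 168 CPM in the Sed libraries and 321 and 387 CPM in the Ex libraries (1.22 ± 0.22, adjusted p = 0.000454). Mki67, which coats mitotic chromosomes, stood at 94.3, 170, 310 and 323 CPM (1.02 ± 0.21, adjusted p = 0.00147). Cdk1 stood at 39.3, 50.7, 107 and 118 CPM (1.05 ± 0.22, adjusted p = 0.00151). For each of these Sed 2 lay above Sed 1 and below both Ex libraries. The checkpoint protein Bub1b (1.24 ± 0.30), the spindle genes Nusap1, Kif11 and Tpx2 (1.09, 1.03 and 0.96), the centromere motor Cenpe (1.01) and the chromosomal passenger genes Aurkb, Birc5 and Cdca8 (0.99, 0.79 and 0.63) also rose. Stmn1 stood at 200, 289, 531 and 528 CPM (0.84 ± 0.20, adjusted p = 0.00328).

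The cyclin B genes and Cdc20 did not pass. Ccnb1, the mitotic cyclin, stood at 22.3, 50.7, 43.2 and 41.3 CPM (0.07 ± 0.31), Ccnb2 at 39.3, 69.8, 63.5 and 51.6 CPM (-0.11 ± 0.26) and Cdc20 at 30.3, 50.7, 48.0 and 60.8 CPM (0.19 ± 0.27). In all 3 the Sed 2 library lay within or above the range of the Ex libraries. Plk1 (0.88, adjusted p = 0.054) and Bub1 (1.03, adjusted p = 0.0711) came near the threshold.

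Without the Mpo cluster 30 of the 40 genes passed the filter on low counts. Of those 17 were called, all upward, where 5.29% of genes were called and 3.09% upward. The 10 genes that did not pass the filter are not counted. The filter asks for enough UMIs in 2 libraries only, so a gene low in Sed could enter through the Ex libraries alone. How many did so was not counted, and the shared upward direction is therefore not independent of the filter. In that fit Cdk1 changed by 2.17 ± 0.37 (adjusted p = 0.00065), Rrm2 by 1.83 ± 0.33 and Stmn1 by 1.81. The count in the whole class depended on single libraries, with almost no gene called without either Ex library, and the count of all genes moved too. Leaving out 1 library at a time, the log2 change ran from 0.31 to 0.88 for Cdca8 and from 0.37 to 1.06 for Rrm2. It ran from 0.74 to 1.34 for Pclaf and from 0.86 to 1.56 for Top2a. DESeq2 called 6, all upward. When cell cycle genes entered the clustering, 115 of these cells kept the name, 104 of them cycling, 569 fell in unnamed clusters and 9 took another name, and 0 genes passed.

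Other genes of the cell cycle, taken from lists by function, were read in the same fit of immature neutrophil-like cells. In that fit 20.1% of all genes tested were called in either direction and 8.37% upward. Of further S phase genes 13 of 33 tested rose and 0 fell, led by Dtl (1.53), Pola1, a subunit of DNA polymerase alpha (1.43), Mcm10 (1.35), Wdr76 (1.34) and Atad2 (1.17). Of further G2/M genes 21 of 48 rose and 2 fell, the largest rises being those of Kif2c (1.59), Kif15 (1.45), Racgap1 (1.37), Ncapg (1.34) and Kpna2 (1.29). Of G1 cyclins and kinases 3 of 8 rose: Cdk6 from 43.1 and 42.8 CPM to 89.2 and 179 CPM (1.27 ± 0.26), Cdk4 from 37.6 and 48.4 CPM to 100.01 and 105 CPM (0.99 ± 0.23), and the phosphatase Cdc25a (0.81).

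Among genes that hold cells out of the cycle, 4 of 6 quiescence factors fell. Of the 7172 genes tested 1439 were called (20.1%), 600 of them upward (8.37%) and the others downward. The antiproliferative Btg2 fell from 484 and 417 CPM to 195 and 218 CPM (-1.44 ± 0.20). Klf2 fell from 387 and 382 CPM to 189 and 172 CPM (-1.39 ± 0.20), and Tob1 (-1.29) and Btg1 (-0.67) fell too. Of CDK inhibitors and p53 genes 2 of 8 fell, Gadd45a (-0.85) and Cdkn1b, which encodes p27 (-0.70). That share is near the 20.1% called in either direction and above the share called downward, on a list of only 8 genes. In each of these lists 1 further gene had an unadjusted p under 0.05 upward. Of Rb, E2F and DREAM factors 0 of 14 passed in edgeR, with 5 at an unadjusted p under 0.05, all upward.

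In NK or ILC1-like cells the cycling share was 12.72% and 9.78% in the Sed libraries and 5.52% and 5.39% in the Ex libraries (means 11.3% ± 2.08 and 5.46% ± 0.091, SD, n = 2), without overlap. Of 39 genes tested 3 fell and 0 rose (edgeR), where 0.177% of genes were called in either direction and 0.114% downward. Tk1, the thymidine kinase of S phase, stood at 51.3 and 38.1 CPM in Sed and at 9.55 and 6.60 CPM in Ex (-2.59 ± 0.37, adjusted p = 0.00852). Tyms stood at 51.9, 51.1, 16.9 and 16.5 CPM in Sed 1, Sed 2, Ex 1 and Ex 2 (-1.77 ± 0.29, adjusted p = 0.0253). Stmn1 stood at 283, 289, 134 and 138 CPM (-1.22 ± 0.22, adjusted p = 0.0298). The groups did not overlap in any of the 3 genes.

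Pclaf (138, 156, 72.7 and 77.0 CPM, -1.11 ± 0.22, adjusted p = 0.0548) and Birc5 (-1.33 ± 0.27, adjusted p = 0.0548) came next, and the median over the 39 genes was -0.78, against 0.01 over all genes. Mki67 stood at 140, 200, 92.6 and 134 CPM and Pcna at 53.6, 77.2, 61.0 and 67.1 CPM, and neither passed. The median was -0.48 over the S genes and -1.10 over the G2/M genes.

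A cluster led by the granzymes Gzmc and Gzmd held 105, 17, 7 and 1 of the class's cells and 86.8%, 30.5%, 23.5% and 8.51% of its UMIs of the 40 genes. Without that cluster the cycling share was 4.80% and 8.05% in Sed and 4.39% and 4.93% in Ex, and the groups overlapped. Without it edgeR called 0 of 34 genes (0.194% of all genes), 6 had an unadjusted p under 0.05, and the median was -0.36. In the whole class the count of the 40 genes called moved with the library left out, as did that of all genes. The log2 change then ran from -2.93 to -2.23 for Tk1, from -1.89 to -1.66 for Tyms and from -1.32 to -1.14 for Stmn1. With all libraries DESeq2 called 3. Read by subtype, the share was 14.7%, 11.9%, 4.9% and 3.9% in NK-like clusters and 6.9%, 8.6%, 7.2% and 8.0% in ILC1-like clusters.

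**Figure D4:**
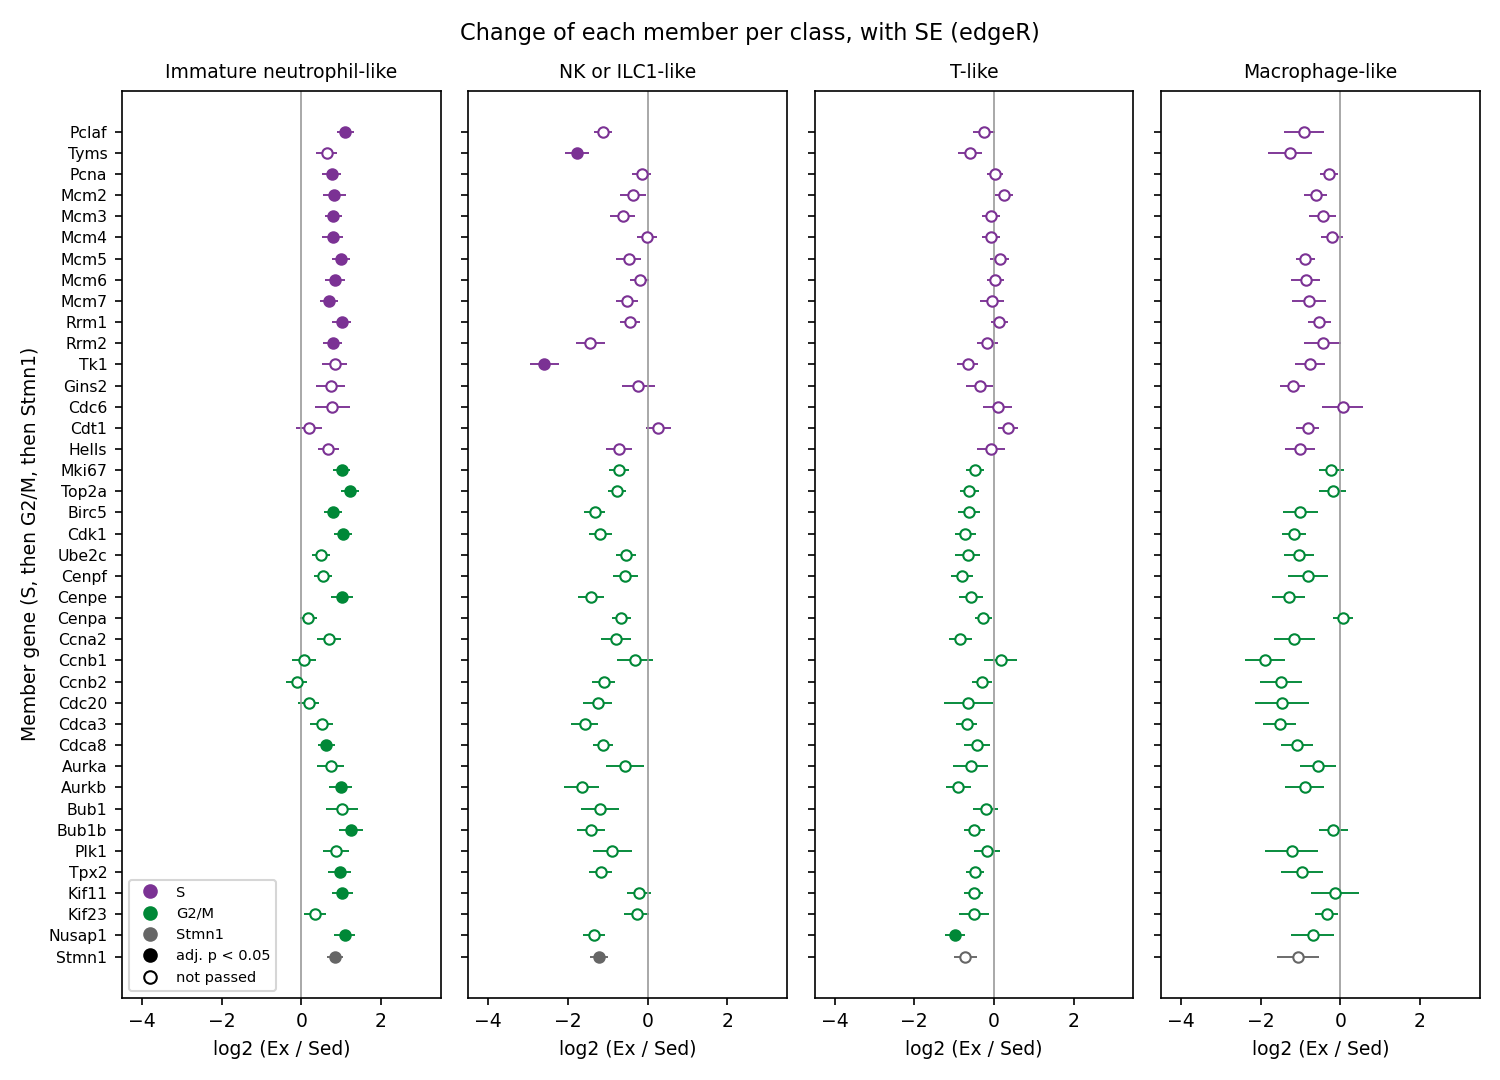
Each panel gives the log2 change (Ex over Sed) of the genes in one class with its standard error, from edgeR on summed UMIs with TMM scaling; filled points passed adjusted p 0.05. In immature neutrophil-like cells 22 filled points lie to the right of 0, and in NK or ILC1-like cells 3 lie to the left.

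In T-like cells the cycling share was 9.96% and 11.99% in Sed and 9.29% and 4.50% in Ex (10.97% ± 1.44 and 6.89% ± 3.39, SD, n = 2), with Ex 1 close to Sed 1. Of 40 genes tested 1 fell (edgeR), where 3.37% of genes were called and 2.05% downward: Nusap1 stood at 42.1, 49.0, 29.6 and 17.3 CPM (-0.98 ± 0.26, adjusted p = 0.0471). The median change was -0.45, made of -0.05 over S genes and -0.58 over G2/M genes. Top2a stood at 145, 216, 146 and 94.2 CPM and Mki67 at 136, 174, 136 and 93.0 CPM, with Ex 1 at the level of Sed 1 in both. Pcna stood at 61.9, 65.05, 72.5 and 60.9 CPM and Mcm5 at 46.1, 56.6, 69.9 and 45.7 CPM, with overlapping groups.

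The T-like cells of the groups lay in different clusters. A cluster led by Gzmk and Ccl5 that also expressed Tox, a factor of chronically stimulated T cells, held 271 and 468 cells in Sed and 8 and 9 in Ex, and 63.2%, 82.3%, 0.523% and 4.71% of the class's UMIs of the 40 genes. Without it the share was 5.20%, 7.36%, 9.25% and 4.22%, edgeR called 0 of 39 genes (0.0107% of all genes) with 1 at an unadjusted p under 0.05, and Nusap1 turned to 0.19. A small cluster led by Xcl1, Ccl1 and Pdcd1 had the highest T-like shares, with 14 of 17, 6 of 12, 28 of 66 and 14 of 35 cells cycling. In regulatory T-like cells the counts were 1 of 27, 3 of 34, 15 of 65 and 6 of 41, so both Ex libraries were higher, while CD8 T-like shares were 9.0%, 12.8%, 4.7% and 1.6% and CD4 T-like shares 21.7%, 13.6%, 14.8% and 7.2%.

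Among other cell cycle genes in T-like cells, the G1 kinase Cdk6 fell from 176 and 233 CPM to 61.1 and 63.3 CPM (-1.76 ± 0.21) and its inhibitors Cdkn2a (14.4, 22.1, 3.79 and 1.21 CPM, -2.75 ± 0.42) and Cdkn2c (-1.57) fell too. Foxo1, a quiescence factor of naive T cells, rose from 40.3 and 34.9 CPM to 78.4 and 102 CPM (1.20 ± 0.23). Rpa2, which binds single-stranded DNA, and Esco2, which establishes cohesion, fell by 1.17 and 1.00 on the log2 scale. In those lists 1 of 9 G1 genes, 2 of 9 inhibitors, 1 of 7 quiescence factors, 1 of 33 S phase genes and 1 of 52 G2/M genes passed, where 3.37% of genes were called, and the cells of the groups lay in different clusters here too.

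In macrophage-like cells the cycling share was 4.02% and 4.68% in Sed and 2.61% and 1.22% in Ex (4.35% ± 0.472 and 1.92% ± 0.988, SD, n = 2), without overlap. Of 39 genes tested edgeR called 0 (0.567% of all genes at the adjusted limit), and DESeq2 called 0. In the edgeR fit 12 had an unadjusted p under 0.05, all downward, without a share of all genes at that limit to set beside them. The smallest p was that of Gins2, part of the replicative helicase, at 13.3, 18.8, 7.45 and 5.77 CPM (-1.20 ± 0.31, adjusted p = 0.127). Pclaf stood at 29.0, 30.4, 21.7 and 6.13 CPM, and Mki67 at 26.7, 27.0, 28.0 and 14.4 CPM, where only Ex 2 was apart. Most macrophage-like cells of Ex lay in a cluster led by Cxcl9 and Arg1 (773 and 299 cells, against 135 and 156 in Sed), where cells were cycling at 2.22% and 3.25% in Sed and at 1.94% and 0.673% in Ex. In the cluster led by Ms4a7 and Pf4 these shares were 6.14% and 5.74% against 7.41% and 6.25%, so within that cluster both Ex libraries were slightly higher.

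In monocyte-like cells the shares overlapped at 5.55%, 13.99%, 7.88% and 5.81%. edgeR called 0 of 40 genes (1.31% of all genes), 0 had an unadjusted p under 0.05, and DESeq2 called 0. Tk1 had the smallest p, at 6.69, 6.99, 16.8 and 7.05 CPM (0.84 ± 0.39, adjusted p = 0.343), through Ex 1 alone. Mki67 stood at 51.2, 138, 121 and 64.6 CPM and Top2a at 37.0, 101, 105 and 36.4 CPM, so that Sed 2 and Ex 1 were high and the other libraries low. Sed 1 differed in its cells: 1000 of its 1274 monocyte-like cells lay in a cluster led by Saa3 and Chil3 that held 49, 1 and 2 cells elsewhere. Without that cluster the shares were 13.36% and 14.26% in Sed and 7.89% and 5.84% in Ex, and edgeR called 0 of 40 genes (1.07% of all genes) with 6 at an unadjusted p under 0.05. The direction depended on the Sed library left out: some of the 40 genes were called downward without Sed 1 and upward without Sed 2. The count of all genes called moved with the library left out as well.

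In Kupffer-like cells the shares were 16.85%, 5.96%, 10.78% and 6.35%, with overlap. edgeR called 0 of 31 genes (0.177% of all genes), 0 had an unadjusted p under 0.05, and DESeq2 called 0. Mki67 had the smallest p, at 71.3, 36.8, 22.2 and 33.6 CPM (-0.96 ± 0.45, adjusted p = 0.547). Pcna stood at 56.5, 34.5, 57.6 and 37.8 CPM, with the groups interleaved. Unlike immune cells as a whole, cycling Kupffer-like cells held fewer UMIs than the others: medians of 1614, 2416, 1387 and 1545 against 4305, 6328, 1693 and 2349. A cluster of few UMIs led by Cxcl13 and Marco (median 876) had shares of 24.5%, 12.8%, 13.8% and 7.14%, and a cluster led by Clec4f and Cd5l (median 8822) had 7.32%, 2.25%, 0% and 4.76%; the part of RNA content in the Kupffer-like share was not tested. Among cells with at least 1000 UMIs edgeR called 0 of 27 genes (0.343% of all genes), with 1 at an unadjusted p under 0.05.

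In cDC-like cells the shares were 11.76% and 13.86% in Sed and 10.19% and 8.08% in Ex (12.8% ± 1.48 and 9.14% ± 1.49, SD, n = 2). edgeR called 0 of 39 genes (0.155% of all genes), 1 had an unadjusted p under 0.05, and DESeq2 called 0. That gene was Stmn1, at 199, 165, 139 and 71.4 CPM (-0.93 ± 0.34, adjusted p = 0.536). Mki67 stood at 75.0, 81.3, 78.9 and 83.2 CPM, with overlapping groups.

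In B-like cells edgeR called 0 of 26 genes (1.90% of all genes), 7 had an unadjusted p under 0.05, 6 of them downward, and DESeq2 called 0. Top2a stood at 9.92, 23.5, 6.67 and 4.14 CPM (-1.65 ± 0.44, adjusted p = 0.0622) and Mki67 at 6.94, 16.6, 4.71 and 2.21 CPM, highest in Sed 2. Tipin, a replication fork protein outside the 40, fell from 26.4 and 24.2 CPM to 12.6 and 11.9 CPM (-1.18 ± 0.27). Most B-like cells of the groups lay in different clusters, one led by Cd79a and Vpreb3 (1231, 639, 497 and 305 cells) and one led by Fcer2a and Pax5 (104, 119, 502 and 870 cells).

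In mature neutrophil-like cells 5 of the 40 genes passed the filter on low counts, edgeR called 0 (0.738% of all genes) with 1 at an unadjusted p under 0.05, and DESeq2 called 0. That gene was Kif23, at 38.1, 47.7, 101 and 121 CPM (1.21 ± 0.26, adjusted p = 0.0625), while Mki67 stood between 1.27 and 5.72 CPM in all 4 libraries. Over all immune cells together edgeR called 0 of 40 genes (0.634% of all genes), 3 had an unadjusted p under 0.05, 2 of them downward, and DESeq2 called 1. Ccnb2 had the smallest p there, at 26.8, 43.7, 22.8 and 16.01 CPM (-0.95 ± 0.27, adjusted p = 0.138), Mki67 stood at 57.7, 95.5, 84.9 and 66.6 CPM and Top2a at 50.8, 80.7, 85.1 and 59.8 CPM.

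The balance of S to G2/M genes differed between classes. Dividing summed S UMIs by summed G2/M UMIs gave 1.45, 1.12, 1.57 and 1.47 in B-like cells and 0.985, 1.29, 1.13 and 1.24 in macrophage-like cells, against 0.570, 0.385, 0.450 and 0.495 in monocyte-like and 0.679, 0.417, 0.633 and 0.515 in immature neutrophil-like cells (Sed 1, Sed 2, Ex 1, Ex 2). Over all cells of a class, every library of the first pair of classes lay above every library of the second. Within cycling cells that order did not hold: the ratio was 1.17, 0.642, 0.402 and 0.390 in B-like and 0.491, 0.820, 0.615 and 1.01 in macrophage-like cells, from 4 to 23 cycling cells per library, and 0.682, 0.418, 0.612 and 0.430 in immature neutrophil-like cells. Among cycling cells, the S genes were the more numerous in 54.5% of B-like, 44.9% of Kupffer-like, 38.3% of T-like and 13.9% of monocyte-like cells, and the G2/M genes in 77.8% of monocyte-like cells. Across the 9 classes tested the summed S and G2/M levels had a Pearson correlation of 0.94 and a Spearman correlation of 0.933, points that share libraries and depth.

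Within cycling cells, genes of the same set were detected together slightly more often than genes of different sets, and all median correlations were small. Over pairs of genes across the 1089 cells, the median phi correlation of detection was 0.036 for 120 pairs of S genes (82.5% positive), 0.064 for 253 pairs of G2/M genes (91.7% positive) and -0.035 for 368 pairs of an S with a G2/M gene (23.9% positive). These cells were chosen by holding at least 3 of the genes, which shapes such correlations, so they are given as a description.

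Between Sed and Ex the S to G2/M ratio did not overlap in T-like cells, at 0.688 and 0.689 in Sed and 0.940 and 0.992 in Ex, and within cycling T-like cells it was 0.533, 0.513, 0.726 and 0.761. Without the Gzmk cluster the order turned, to 1.11, 1.15, 0.936 and 1.01. In Kupffer-like cells it was 0.822 and 0.926 in Sed and 1.44 and 1.38 in Ex, from 64 to 1179 G2/M UMIs per library, while within cycling Kupffer-like cells it was 0.573, 0.587, 1.35 and 0.463 and the groups overlapped. In immature neutrophil-like cells, where both sets rose, the ratio overlapped, as it did in NK or ILC1-like cells (0.546, 0.648, 0.892 and 0.536). In those immature cells the summed S level was 608, 672, 1536 and 1280 CPM and the summed G2/M level 896, 1610, 2427 and 2488 CPM.

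**Figure D5:**
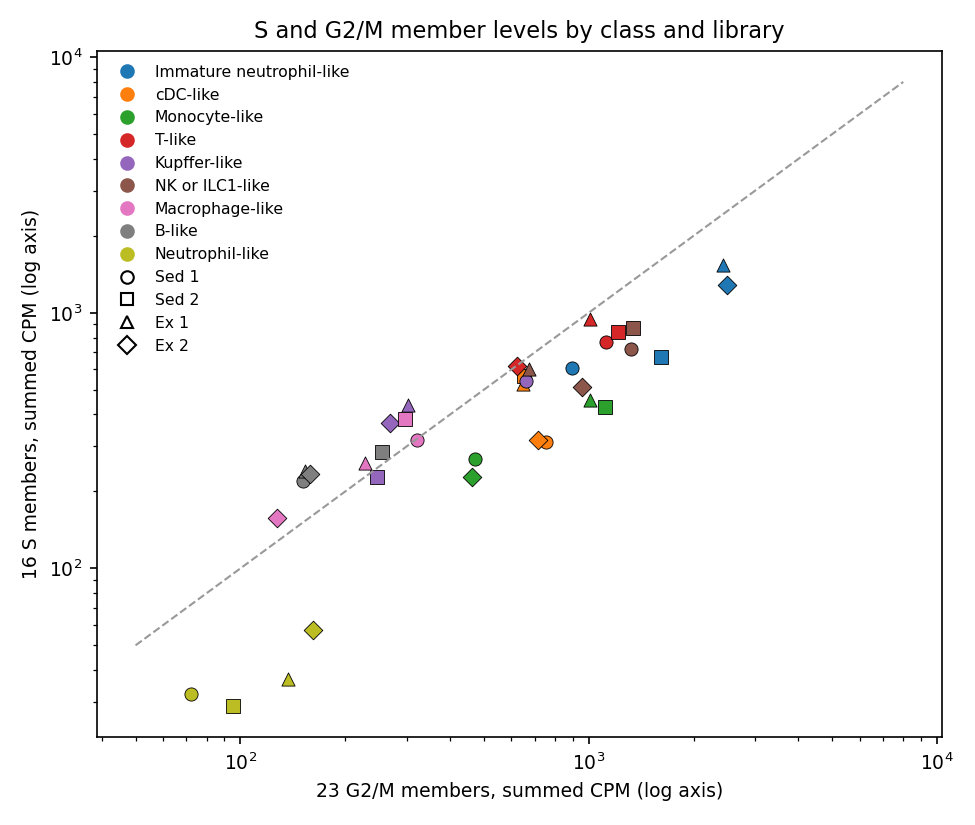
Each point is a class in one library, with the summed CPM of the 23 G2/M genes on the x axis and of the 16 S genes on the y axis, both on log scales; the dashed line marks equal sums. Immature neutrophil-like libraries reach 2427 and 2488 CPM of G2/M genes in Ex, and B-like libraries lie above the line.

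Whether the change in immature neutrophil-like cells differed from that in other classes was tested in one fit with library as a block. The pair with cDC-like cells was taken by rule, as the tested classes with the highest pooled cycling shares. Those shares come from the same 40 genes, and in both Sed libraries the immature neutrophil-like share lay below the cDC-like one. The choice of this pair is therefore not independent of the change tested. Against cDC-like cells 2 of 40 genes passed (edgeR), a count near the 3.68% of all genes called. The change in cDC-like minus that in immature neutrophil-like cells was -1.76 ± 0.33 for Stmn1 (adjusted p = 0.0253) and -1.34 ± 0.27 for Top2a (adjusted p = 0.0259). Its median was -0.93 over the 40 genes. Against NK or ILC1-like cells, a comparison chosen after the data were seen, 28 of 40 genes passed, all with the lower change in NK or ILC1-like cells, where 13.9% of genes were called. The count against cDC-like cells rose when either Sed library was left out, and no gene was called when either Ex library was left out. The share of all genes called in those fits is not given. Without the Mpo cluster 7 of 39 genes passed, where 1.21% of genes were called.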

How the data were processed

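UMI counts by gene and barcode were deposited by the authors, made from 10x 3' v3.1 libraries with Cell Ranger 7.0.0 on mm10 (GRCm38), per the submitters' processing notes; the file header names another version of that software. The libraries were aggregated, and whether their read depth was made equal is not given in the sources used here. The 40 genes and the lists of pathway genes and markers were chosen with earlier results of these data known.

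Barcodes were dropped under 200 genes or over 10% mitochondrial UMIs. Doublets were scored with Scrublet, whose own limit marked 3.04, 0.0132, 0.0165 and 0.0236% of the barcodes of Sed 1, Sed 2, Ex 1 and Ex 2, too few in 3 libraries, so the top-scoring cells were removed at 0.8% per 1000 cells (422, 462, 293 and 144 cells). Of removed cells at depth 92 of 1270 were cycling. The rest were clustered in scanpy 1.11.5 (2000 variable genes, 30 components, 20 for lymphocytes, 15 neighbours, leidenalg 0.10.2 at resolution 1) without 258 cell cycle genes, 195 listed and 63 that followed them, and named from marker lists; 352 mixed and 283 unnamed cells were left out. For cycling shares each cell was thinned to 1000 UMIs.

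Summed counts per class and library, with at least 30 cells in each library, were fitted in edgeR 4.0.16 (quasi-likelihood, filterByExpr, TMM, Sed and Ex libraries of that class only, no covariates), and tested on simulated data. The standard error is the log2 change divided by the square root of F. Alternatives included DESeq2 1.42.0. Replicate numbers do not mark shared animals in the labels, so no block was used. Values in every library are given for genes past the threshold, for the smallest p in a class with none, and for a set of 10 standard genes in the main classes; up to 5 pathway genes per list were named, largest change first.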

Additional observations from a re-analysis of the deposited data

Results flagged for a closer look

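The Ex against Sed change was compared between immature neutrophil-like and cDC-like cells by a test of the difference itself (edgeR interaction term, library as block). This pair was taken for its pooled cycling shares, which come from the same 40 genes, so the choice is not independent of the change tested. It differed for 2 of the 40 genes tested, where 3.68% of all genes were called, so the count was near that share. Neither gene was called when either Ex library was left out. The change in cDC-like minus that in immature neutrophil-like cells was -1.76 on the log2 scale for Stmn1 and -1.34 for Top2a. In both genes each Ex library of immature neutrophil-like cells was higher than each Sed library. When the Mpo and Elane cluster was left out of the immature neutrophil-like cells, a choice made after the data were seen, 7 of 39 genes passed the same test, where 1.21% of genes were called. Against NK or ILC1-like cells, also chosen after the data were seen, the change differed for 28 of 40 genes, where 13.9% of genes were called.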

How the results depend on the processing

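The numbers of the 40 genes called in a class moved with the processing. So did the number of all genes called, so these counts alone do not set the 40 genes apart. With all libraries kept, that number ran from 39 to 1823 in immature neutrophil-like and from 1 to 841 in NK or ILC1-like cells. It ran from 20 to 682 in macrophage-like, from 1 to 640 in T-like and from 63 to 466 in B-like cells. It also moved when a library was left out. Without a low-count filter edgeR called 4 genes in B-like, 13 in macrophage-like, 16 in NK or ILC1-like, 1 in mature neutrophil-like, 4 in T-like and 1 in cDC-like cells and 2 over all immune cells. DESeq2 called 6 in immature neutrophil-like, 0 in T-like and 1 in all immune cells. On plain totals without TMM 1 was called in NK or ILC1-like and 1 in mature neutrophil-like cells; the median change of all genes then lay above that under TMM by over 0.1 in immature neutrophil-like, NK or ILC1-like, mature neutrophil-like, cDC-like, B-like and all immune cells. With the replicate number as a block, which the labels do not tie to animals (correlations of same-numbered deviations from -0.093 to 0.199), 3 genes were called in B-like, 21 in NK or ILC1-like, 1 in mature neutrophil-like and 0 in T-like cells. With doublets kept 9 were called in B-like, 14 in NK or ILC1-like and 0 in T-like cells. The stricter cell filter gave 5 in macrophage-like and 0 in T-like cells, and Kupffer-like cells could not be fitted there for lack of cells in Ex 2. Clustering at resolution 2 gave 7 in macrophage-like cells. With cell cycle genes kept in the clustering 0 were called in immature neutrophil-like, 0 in NK or ILC1-like, 1 in monocyte-like and 8 in T-like cells. Without the Gzmc cluster 0 were called in NK or ILC1-like cells and without the Gzmk cluster 0 in T-like cells. Leaving out 1 library at a time gave 0 to 23 in immature neutrophil-like, 1 to 16 in NK or ILC1-like, 0 to 3 in T-like, Kupffer-like and cDC-like, 0 to 6 in monocyte-like, 0 to 4 in B-like, 0 to 2 in macrophage-like and all immune cells, 0 to 1 in mature neutrophil-like cells, and 0 to 14 for the difference between immature neutrophil-like and cDC-like cells. Without the Mpo cluster that difference was called for 7 genes.

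With cell cycle genes kept in the clustering 17 genes changed sign in immature neutrophil-like cells, where 104 of the 115 cells that kept the name were cycling: Aurkb -0.31, Birc5 -0.27, Bub1b -0.058, Cdca8 -0.19, Cdk1 -0.054, Cenpe -0.39, Kif11 -0.36, Mcm7 -0.0058, Mki67 -0.20, Nusap1 -0.28, Pclaf -0.15, Pcna -0.087, Rrm1 -0.18, Rrm2 -0.098, Stmn1 -0.15, Top2a -0.13 and Tpx2 -0.069. Nusap1 in T-like cells without the Gzmk cluster changed by 0.19.

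The cycling share, as Ex minus Sed in percentage points, was 22.7 in immature neutrophil-like cells, and 27.9 at 2000 UMIs, 32.4 with no thinning, 15.8 at 5 or more genes, -4.99 with cell cycle genes in the clustering and 14.0 without the Mpo cluster. In NK or ILC1-like cells it was -5.79, and -7.47 at 2000 UMIs, -8.13 with no thinning, -2.41 with cell cycle genes in the clustering and -1.77 without the Gzmc cluster. In T-like cells it was -4.08, and 1.90 with no thinning and 0.455 without the Gzmk cluster. In macrophage-like cells it was -2.43, and -4.74 at 2000 UMIs, -5.62 with no thinning, -3.91 at 2 or more genes, -1.43 at 5 or more, -4.55 with the stricter cell filter and -11.9 at resolution 2. In cDC-like cells it was -3.68, and 3.84 with no thinning, -5.48 at 2 or more genes and -1.20 with cell cycle genes in the clustering. With no thinning it was 2.72 in B-like, -13.9 in Kupffer-like, -11.8 in monocyte-like and 1.03 in mature neutrophil-like cells, and the last had -0.244 at 2000 UMIs, 0.486 at 2 or more genes and -0.505 with doublets kept.

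The S to G2/M ratio, as Ex minus Sed, was 0.277 in T-like cells, and 0.220 in cycling cells only, 0.0876 without Pcna and the Mcm genes, 0.248 with the stricter cell filter and -0.159 without the Gzmk cluster. In Kupffer-like cells it was 0.534, and 0.325, 0.153 and 0.0517 under the same 3 settings, 0.608 with doublets kept and 0.627 at 1000 UMIs or more. In B-like cells it was 0.230, and -0.512, 0.0534 and -0.141, with 0.706 with doublets kept. Over all immune cells 0.148 became 0.0734 in cycling cells only and 0.0360 without Pcna and the Mcm genes, and in macrophage-like cells the stricter filter gave 0.240. Where no cause is given, the cause was not tested. Thinning to 1000 UMIs limits the call to genes seen at that depth, and 2 libraries a group limit every comparison.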

Other observations

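Genes outside the 40 also kept closely to cycling cells. Their shares, given as a description, use UMIs before thinning and cells called by all 40 genes. They are therefore not on the scale of the shares given for the 40, and over all genes the same measure was 12.02%. Among 9226 genes with at least 500 UMIs, the highest was that of the cohesion factor Esco2 (96.2%). Next came the histone gene Hist1h3c (94.7%), the mitotic kinase Pbk (94.2%), the histone gene Hist1h2ab (92.8%) and Hmmr (92.7%). The kinetochore gene Ska1 (91.9%), the kinesins Kif4 and Kif22 (both 90.2%), the spindle pole gene Aspm (89.7%) and the condensin subunit Ncapg (89.3%) followed. The method captures polyadenylated transcripts, which most histone transcripts of S phase are not.

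Cells outside the named immune classes also held cycling cells. In a cluster led by Dcn, Rhox5 and collagen genes, 15 of 46 cells at depth were cycling (32.6%), and in a platelet-like cluster led by Ppbp 40 of 268 were (14.9%). Endothelial-like cells had 13 of 1047 (1.24%) and hepatocyte-like cells 7 of 166. Mixed clusters had 40 of 347 and unnamed clusters 29 of 182.

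Cycling immature neutrophil-like cells held 6505, 6877, 6925 and 6814 CPM of the 40 genes together in Sed 1, Sed 2, Ex 1 and Ex 2, and non-cycling ones 158, 80.2, 910 and 1278 CPM. The same 40 genes made the split, which by itself limits the level on both sides, so these values are a description only. The level within cycling cells lay between 6505 and 6925 CPM. In cells below the limit both Ex libraries were higher than both Sed libraries, which was not tested.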
